A study of Mus musculus with 22 samples.

Results

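The genes followed here are the nuclear genes of respiratory complex I, read in brown adipose tissue (BAT) of mice with and without CPEB2. Every gene whose mouse symbol starts with Nduf was taken from both count tables, and symbols holding -ps were left out. This gave 49 members of the 55487 gene identifiers in the tables: 46 protein-coding genes and the 3 processed pseudogenes Ndufa11b, Ndufb4c and Ndufs6b.

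Complex I is the entry point of the mitochondrial respiratory chain. It takes electrons from NADH, passes them to ubiquinone and pumps protons across the inner membrane. Its matrix arm holds the flavin and the iron-sulfur clusters, and its membrane arm holds the proton pumps, which the mitochondrial genome encodes. The nuclear genome encodes the core subunits of the matrix arm (such as Ndufv1, Ndufs1 and Ndufs8), the accessory subunits that wrap both arms, and assembly factors (Ndufaf) that help to build the enzyme and are not part of it. Brown adipocytes are rich in mitochondria, and UCP1 spends there as heat the gradient that the chain builds. Ndufa4, named as a complex I subunit, is a subunit of complex IV, and Ndufa4l2 is its relative.

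BAT RNA of 22 C57BL/6 mice was sequenced, 1 library per mouse, all labelled male. The untreated mice were 5 WT and 5 KO animals of 21 to 25 weeks, KO being a global deletion of Cpeb2, and these mice had gone without food for some hours before collection. In the AAV cohort, WT and KO mice received at 16 weeks a dose of 20000000000 vg in 30 µl of AAV2/8 carrying GFP or flag-tagged PRDM16 in the interscapular BAT, and 9 weeks after that, which the labels give as an age of 25 weeks, BAT was taken from 3 mice in each of WT + AAV-GFP (mice 56, 65 and 89), WT + AAV-PRDM16 (63, 64 and 80), KO + AAV-GFP (57, 64 and 69) and KO + AAV-PRDM16 (59, 65 and 76). KO mice came from heterozygous crosses, those studied had survived early respiratory stress, and CPEB2 was absent from every tissue, while PRDM16 was added in the injected BAT of adults. PRDM16 is a transcriptional regulator of brown fat identity, and the comparisons ask what loss of CPEB2 and added PRDM16 do to the BAT transcriptome.

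The depth was 55320927 to 162721202 counts per library in the untreated cohort and 61636889 to 143005309 in the AAV cohort. Of the 49 members, 48 passed the filter on low counts in each cohort, and the exception in both was Ndufa11b, whose highest value was 0.0389 CPM. Values are CPM, counts scaled to the size of the library, after TMM scaling, which corrects that size for differences in RNA composition, and fold changes are log2 values from edgeR's quasi-likelihood test with Benjamini-Hochberg adjustment (FDR) over all genes tested, with 0.05 as the threshold of a call. Cpeb2 was 10.5 to 14.0 CPM in the 6 WT and 4.33 to 5.55 CPM in the 6 KO libraries of the AAV cohort. In the untreated cohort the library labelled KO 1 held 11.7 CPM of Cpeb2, inside the WT range of 7.69 to 14.3, and 6 libraries (WT 3 and 5, KO 1, 3, 4 and 5) held Xist with at most 1.17 CPM of summed Y-linked transcripts, against their label as male. By this measure sex was not balanced between the untreated genotypes. WT 4 held both kinds, with 14.0 CPM of Xist and 115.7 of Y-linked transcripts, and KO 2 held 1.65 and 77.1 CPM. Ucp1, the defining transcript of brown fat, was at least 1184 CPM in every library.

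Set per length, the members spanned a wide range of levels. Here the mean CPM of a gene was divided by its exonic length, which joins the exons of all annotated transcripts and so lowers the value of genes with long rare ones. In WT + AAV-GFP the distal membrane arm was led by Ndufb9 with a mean of 199.6 CPM per kb of exon (n = 3). Ndufa4 stood at 193.7, the flavin-binding core subunit Ndufv1 at 192.6 and Ndufa10, the highest of the proximal membrane arm, at 189.4 CPM per kb. The matrix arm accessory subunits were led by Ndufa9 with 126.3 CPM per kb. Assembly factors were low, from 23.5 CPM per kb for Ndufaf1 down to 2.15 for Ndufaf2. The pseudogene Ndufb4c stood at 44.7 CPM per kb beside 40.1 for its parent Ndufb4, and since the handling of reads that fit both is not given in the sources used here, the values of Ndufb4, Ndufa11 and Ndufs6 and of their pseudogenes are uncertain.

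In the AAV cohort, KO BAT held less RNA of 13 complex I genes than WT BAT. Over both viruses together, 13 of the 48 members tested were lower in KO (27.1%, where 1.12% of all genes tested were called lower) and 0 were higher (1.06% of all genes). The median log2 fold change of the members was −0.26, a median of 16.5% less RNA, against 0.01 over all 18899 genes, and 47 of the 48 had a negative value. The 13 were accessory subunits: 5 of 9 in the matrix arm, 4 of 9 in the proximal and 4 of 10 in the distal membrane arm, with 0 of the 7 core subunits and 0 of the 8 assembly factors. This split depends on the threshold. At an unadjusted p under 0.05 in edgeR's test, 8, 7 and 7 of these accessory subunits were lower (8.76% of all genes). So were 4 core subunits and 2 assembly factors. The genotypes did not overlap in 3 members of each accessory module, 3 core subunits and 0 assembly factors (1.58% of all genes). In bulk tissue, fewer brown adipocytes and less RNA per brown adipocyte cannot be told apart. The count of 13 calls moved with single libraries: it was 4 without WT + AAV-GFP mouse 65 or mouse 89, WT + AAV-PRDM16 mouse 80 or KO + AAV-PRDM16 mouse 59, 5 without WT + AAV-PRDM16 mouse 63 or KO + AAV-GFP mouse 64, and 9 to 14 without any of the others. It was 25 lower and 1 higher with DESeq2 and 28 lower with limma-voom. Here and below, the shares of all genes called are those of the edgeR fit. None are given for DESeq2, limma-voom or the other alternatives, so their counts of members are not set against all genes.

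**Figure D1:**
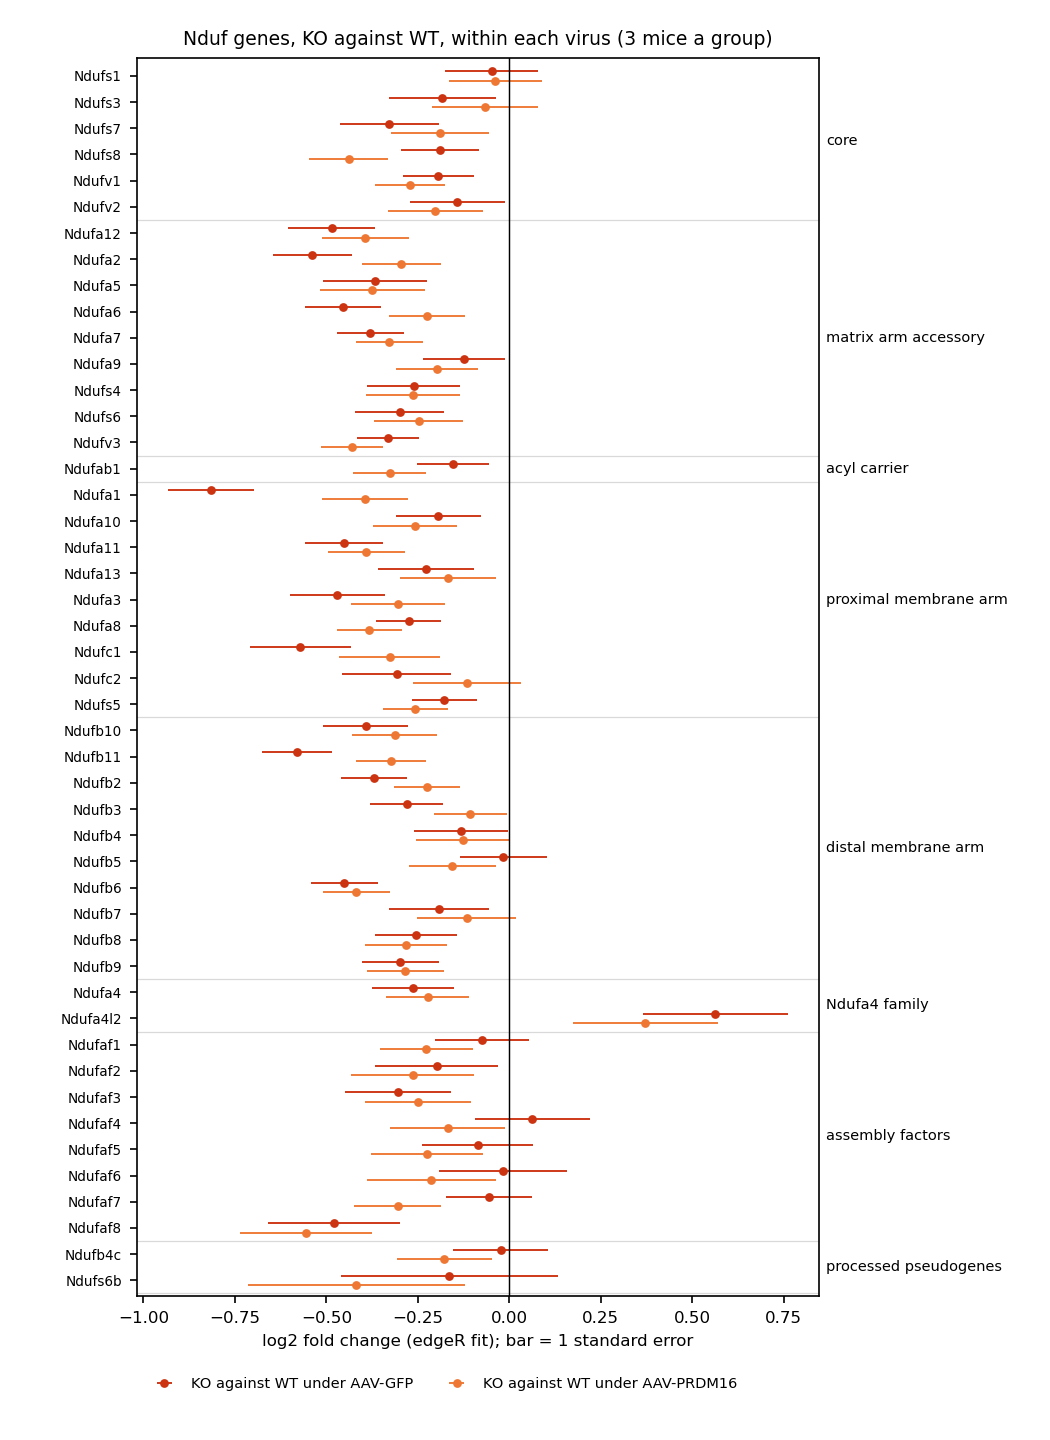
Log2 fold change of 47 of the 48 members tested, KO against WT, under AAV-GFP (red) and under AAV-PRDM16 (orange), with 1 standard error as the bar and the members grouped by module. Nearly all points lie left of 0, with Ndufa4l2 on the right under both viruses and Ndufa1 farthest to the left, at −0.82, under AAV-GFP.

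Among the subunits of the proximal membrane arm, the largest difference was that of Ndufa1, a small membrane protein needed for the assembly of the arm, whose gene (GRCm38 chrX:37187588-37191163, minus strand) has a transcript of 419 bases, the shortest of the protein-coding members. It stood at 54.9, 65.4 and 63.8 CPM in WT + AAV-GFP, 63.9, 55.9 and 67.9 in WT + AAV-PRDM16, 35.3, 36.3 and 32.9 in KO + AAV-GFP and 49.4, 52.6 and 40.6 in KO + AAV-PRDM16. All 6 KO libraries lay below all 6 WT libraries, and the log2 fold change over both viruses was −0.61 ± 0.08 SE, 34.3% less RNA (FDR 0.00838, edgeR). Ndufa11, which lies where complex I meets complex III in supercomplexes, stood at 39.5, 45.9 and 41.1 CPM in WT + AAV-GFP, 42.7, 46.1 and 46.4 in WT + AAV-PRDM16, 28.4, 32.1 and 32 in KO + AAV-GFP and 29.9, 38 and 35.2 in KO + AAV-PRDM16. The genotypes again did not overlap, with −0.42 ± 0.08 SE (FDR 0.0204, edgeR).

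Ndufa8, a subunit on the side of the intermembrane space, stood at 81, 78.5 and 84.2 CPM in WT + AAV-GFP, 88.7, 85.4 and 92.6 in WT + AAV-PRDM16, 67.2, 65.5 and 68.8 in KO + AAV-GFP and 62.6, 75.4 and 66.4 in KO + AAV-PRDM16, and the libraries of the genotypes were apart, with −0.33 ± 0.06 SE (FDR 0.0261, edgeR). Ndufc1, a small subunit with 1 membrane helix, stood at 16.4, 15.7 and 13.6 CPM in WT + AAV-GFP, 15.2, 14.6 and 15 in WT + AAV-PRDM16, 9.92, 9.34 and 11.4 in KO + AAV-GFP and 9.84, 11.7 and 14.2 in KO + AAV-PRDM16. Here KO + AAV-PRDM16 mouse 76 lay above WT + AAV-GFP mouse 89, and the difference was −0.45 ± 0.10 SE (FDR 0.0391, edgeR). The next member of this module, Ndufa3, missed the threshold narrowly, with −0.39 ± 0.09 SE and an FDR of 0.0509 in edgeR's test.

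In the distal membrane arm, Ndufb11 (GRCm38 chrX:20615326-20617619, minus strand), like Ndufa1 a gene of the X chromosome, stood at 112, 113 and 112 CPM in WT + AAV-GFP, 122, 113 and 136 in WT + AAV-PRDM16, 73.3, 71.3 and 80.9 in KO + AAV-GFP and 92, 103 and 102 in KO + AAV-PRDM16. The WT + AAV-GFP mice lay close to each other, all 6 KO libraries were lower than all 6 WT libraries, and the difference was −0.45 ± 0.07 SE (FDR 0.00974, edgeR). Xist was at most 0.268 CPM in the 12 AAV libraries, so these X-linked genes were read in libraries of one sex by this measure. Ndufb6 (GRCm38 chr4:40270591-40279421, minus strand) stood at 46.4, 51.8 and 46.2 CPM in WT + AAV-GFP, 48.8, 51.3 and 57.1 in WT + AAV-PRDM16, 34, 37.3 and 34.4 in KO + AAV-GFP and 37.1, 41 and 39.6 in KO + AAV-PRDM16. Its genotypes did not overlap either, with −0.43 ± 0.07 SE (FDR 0.00974, edgeR).

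Ndufb2 was the third subunit of the distal arm with all KO libraries below all WT libraries, at 21.4, 20 and 19.5 CPM in WT + AAV-GFP, 19, 19.3 and 21 in WT + AAV-PRDM16, 14.9, 15.5 and 16.7 in KO + AAV-GFP and 16.1, 17.2 and 17.4 in KO + AAV-PRDM16 and with −0.30 ± 0.06 SE (FDR 0.0376, edgeR). Ndufb10, which faces the intermembrane space, lay just inside the threshold at FDR 0.0495 in edgeR's test, with −0.35 ± 0.08 SE and overlapping genotypes. Ndufb3, Ndufb8 and Ndufb9 had unadjusted p-values under 0.05 in the same fit without passing the adjustment, and Ndufb4, Ndufb5 and Ndufb7 did not reach that either, with values from −0.15 to −0.09.

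In the matrix arm, Ndufv3 (GRCm38 chr17:31520115-31531331, plus strand), an accessory subunit next to the flavin-binding core subunits Ndufv1 and Ndufv2, stood at 166, 167 and 167 CPM in WT + AAV-GFP, 196, 182 and 190.3 in WT + AAV-PRDM16, 141, 123 and 132 in KO + AAV-GFP and 135, 145 and 142 in KO + AAV-PRDM16. The highest KO library, at 145 CPM, lay below the lowest WT library, at 166 CPM, with −0.38 ± 0.06 SE (FDR 0.0131, edgeR). Ndufa2, a subunit with a thioredoxin-like fold, stood at 35, 34.3 and 35 CPM in WT + AAV-GFP, 37.4, 34.7 and 40.1 in WT + AAV-PRDM16, 22.8, 22 and 26.9 in KO + AAV-GFP and 28.5, 28.6 and 34.3 in KO + AAV-PRDM16. The highest KO library, mouse 76 of KO + AAV-PRDM16, came close to the lowest WT library, mouse 65 of WT + AAV-GFP, without passing it, and the difference was −0.42 ± 0.08 SE (FDR 0.0216, edgeR).

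Ndufa7 stood at 49.3, 48.7 and 49.1 CPM in WT + AAV-GFP, 53, 46.3 and 57.7 in WT + AAV-PRDM16, 37.3, 36.1 and 39.6 in KO + AAV-GFP and 41.5, 43 and 40.4 in KO + AAV-PRDM16, with no overlap and −0.35 ± 0.06 SE (FDR 0.0220, edgeR). Ndufa12, which takes the place of the assembly factor Ndufaf2 late in assembly, stood at 48.2, 64 and 63.5 CPM in WT + AAV-GFP, 69.9, 67.1 and 74.8 in WT + AAV-PRDM16, 41.5, 39.3 and 44.7 in KO + AAV-GFP and 53, 58.8 and 49.5 in KO + AAV-PRDM16. WT + AAV-GFP mouse 56 lay inside the KO range, and the difference was −0.44 ± 0.08 SE (FDR 0.0261, edgeR). Ndufa6, which anchors an acyl carrier protein to the matrix arm, stood at 124, 130.0 and 129 CPM in WT + AAV-GFP, 127, 123 and 142 in WT + AAV-PRDM16, 91.6, 96 and 91.4 in KO + AAV-GFP and 96.3, 116 and 124 in KO + AAV-PRDM16, with overlap from mouse 76 of KO + AAV-PRDM16 and −0.34 ± 0.07 SE (FDR 0.0376, edgeR). The acyl carrier Ndufab1 itself was at −0.24 without a call (FDR 0.0909, edgeR).

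**Figure D2:**
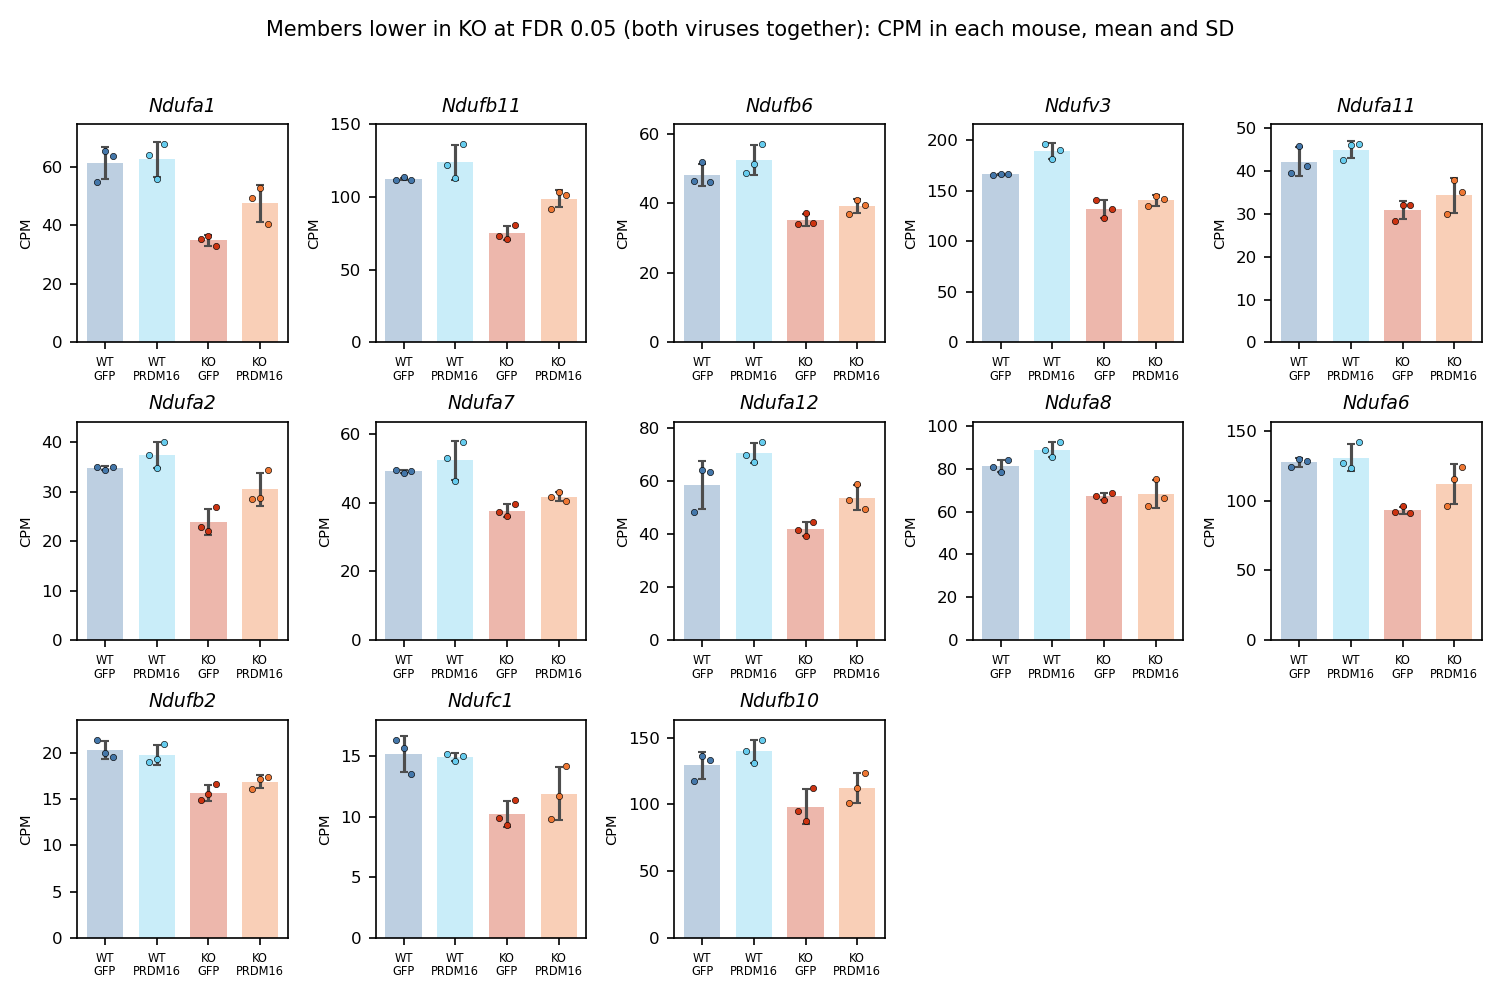
CPM of the 13 members lower in KO over both viruses, in each mouse of the AAV cohort (points), with the group mean (bar, from 0) and SD (n = 3). KO + AAV-GFP is the lowest group in each panel, and for Ndufa1 its 3 mice lie between 32.9 and 36.3 CPM.

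To show the DNA and RNA around these genes, promoters of 300 bases (250 before and 50 after the start site, RefSeq, GRCm38.p6) were matched by symbol to 40 of the 49 members, 12 of the 13 lower in KO among them, and searched on both strands for short motifs of factors known for respiratory genes. The core of the NRF1 motif, TGCGCA, reads the same on both strands and was in 11 of the 40 (27.5%). It was in 4 of the 12 lower in KO (33.3%) and in 7 of the 28 others (25.0%). Of the promoters of 16511 protein-coding genes, 10.3% held it. NRF1, nuclear respiratory factor 1, is a known activator of respiratory chain genes. The windows of the 4 members lower in KO that hold it are printed so that its place can be seen, with the motif in capitals:
Ndufa6: cgcggtagagcaTGCGCAttgcagagcccg
Ndufa8: gctggagacgcaTGCGCAgatggtaccggg
Ndufb6: aagagagggcttTGCGCAtgagcagagcct
Ndufb10: ctgtcacctttcTGCGCAggcgtagaggtc
They are given 5′ to 3′ in the direction of the gene, all on the minus strand, and lie at chr15:82354354-82354383, chr2:36049326-36049355, chr4:40279482-40279511 and chr17:24724409-24724438. Ndufa6 holds the motif at 2 places in the promoter.

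The full cAMP response element TGACGTCA, also the same on both strands, was in 3 of the 40 members (7.5%), beside 2.4% of coding promoters. The element was in 1 of the 28 members not lower in KO (3.6%) and in 2 of the 12 lower in KO (16.7%). It stands in capitals in both, at chr17:56717593-56717622 and chr6:39592540-39592569 on the plus strand:
Ndufa11: tttacctttccTGACGTCAcgggcgtctct
Ndufb2: gtgcgacgcagTGACGTCAcgggccgggac
The ETS motif CCGGAAG of GABP was in 6 of the 40 (15%, beside 12.3%), the site AAGGTCA of estrogen-related receptors in 3 (7.5%, beside 3.9%) and the YY1 motif AAGATGG, whose letters can hold a start codon, in 8 (20.0%, beside 6.4%). Each of these 3 motifs was in 1 of the 12 members lower in KO (8.3%). Among the 28 others the shares were 17.9% for GABP, 7.1% for estrogen-related receptors and 25.0% for YY1. A match of letters is a description and not evidence of binding.

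CPEB proteins bind the cytoplasmic polyadenylation element (CPE) in 3′ untranslated regions, with UUUUAU or UUUUAAU as its usual letters, written here with T. The members have short 3′ untranslated regions: the median was 197 bases in the longest coding transcript of the 46 protein-coding members, 178 in the 13 lower in KO and 1119 over 14414 coding genes tested (GENCODE M21, GRCm38). A CPE was in 13 of the 46 (28.3%), in 3 of the 13 lower in KO (23.1%) and in 60.7% of the coding genes. Among genes with at most 197 bases, it was in 2 of 24 members (8.3%) and in 12.6% of 1532 coding genes. Of the 3 members lower in KO with a CPE, these are the last ones of Ndufc1 and Ndufb2, in capitals, 145 and 2002 bases before the transcript end:
Ndufc1: aggcccggcTTTTATtgtcagtta
Ndufb2: ttatttctgTTTTATtagattaaa
Ndufa1, Ndufb11, Ndufb6 and Ndufv3, the members with the smallest p-values over both viruses, held no CPE in these transcripts, whose 3′ untranslated regions have 133, 93, 188 and 79 bases. Other U-rich sequences, which the paper also marks in the 3′ untranslated region of Prdm16, were not searched.

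All 7 core subunits had a negative value, with a median of −0.23. Ndufs8, which holds iron-sulfur clusters, stood at 129, 135 and 141 CPM in WT + AAV-GFP, 140.4, 147 and 163 in WT + AAV-PRDM16, 118, 126 and 111 in KO + AAV-GFP and 96.9, 123 and 112 in KO + AAV-PRDM16, without overlap between the genotypes, and at −0.31 ± 0.08 SE it did not pass (FDR 0.0535, edgeR). At the other end Ndufs1, the largest core subunit, was at −0.04 (FDR 0.855, edgeR), the value nearest to 0 of all members.

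The assembly factors had a median log2 fold change of −0.17, and the most negative was Ndufaf8 with −0.52 ± 0.13 SE (FDR 0.0577, edgeR). Ndufaf8 stood at 4.86, 6.44 and 5.32 CPM in WT + AAV-GFP, 8.04, 6.84 and 5.84 in WT + AAV-PRDM16, 3.66, 3.41 and 4.84 in KO + AAV-GFP and 5.08, 4.38 and 4.63 in KO + AAV-PRDM16. All KO libraries lay below the WT libraries given the same virus, and over both viruses the genotypes overlapped. Ndufa4l2 was the 1 member with a positive value. It stood at 2.83, 2.50 and 2.86 CPM in WT + AAV-GFP, 3.64, 3.32 and 2.86 in WT + AAV-PRDM16, 4.39, 2.97 and 4.74 in KO + AAV-GFP and 4.80, 3.66 and 4.24 in KO + AAV-PRDM16, with 0.47 ± 0.14 SE (FDR 0.0993, edgeR), while its relative Ndufa4 was at −0.24 (FDR 0.121, edgeR).

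Counted without the adjustment, 30 of the 48 members had a p under 0.05 in edgeR's test and a lower value in KO (62.5%, beside 8.76% of all genes), and in 12 all 6 KO libraries lay below all 6 WT libraries (25.0%, beside 1.58%). Of 40 nuclear genes of complexes II to V, 16 were called lower in KO and 0 higher, with a median of −0.26, led by Uqcr11 of complex III (−0.59, FDR 0.00590, edgeR). Of 11 tested assembly genes of complex I without an Nduf name, Ecsit alone was called lower (−0.31, FDR 0.0325, edgeR). The 7 complex I subunits of the mitochondrial genome were not called, with a median of 0.08 and a range from −0.25 for mt-Nd3 to 0.19 for mt-Nd5, and none of 8 regulators of mitochondrial biogenesis was called, with a median of −0.12. Of 13 brown fat genes 3 were called lower (Cox8b, Cidea and Cox7a1), and Cox8b and Cox7a1 are also chain subunits. The 13 had a median of −0.24, with 10 negative and 3 positive. Mean Ucp1 was 1721 CPM in WT + AAV-GFP and 1905 in KO + AAV-GFP. It was 2790 CPM in WT + AAV-PRDM16 and 1808 in KO + AAV-PRDM16.

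**Figure D3:**
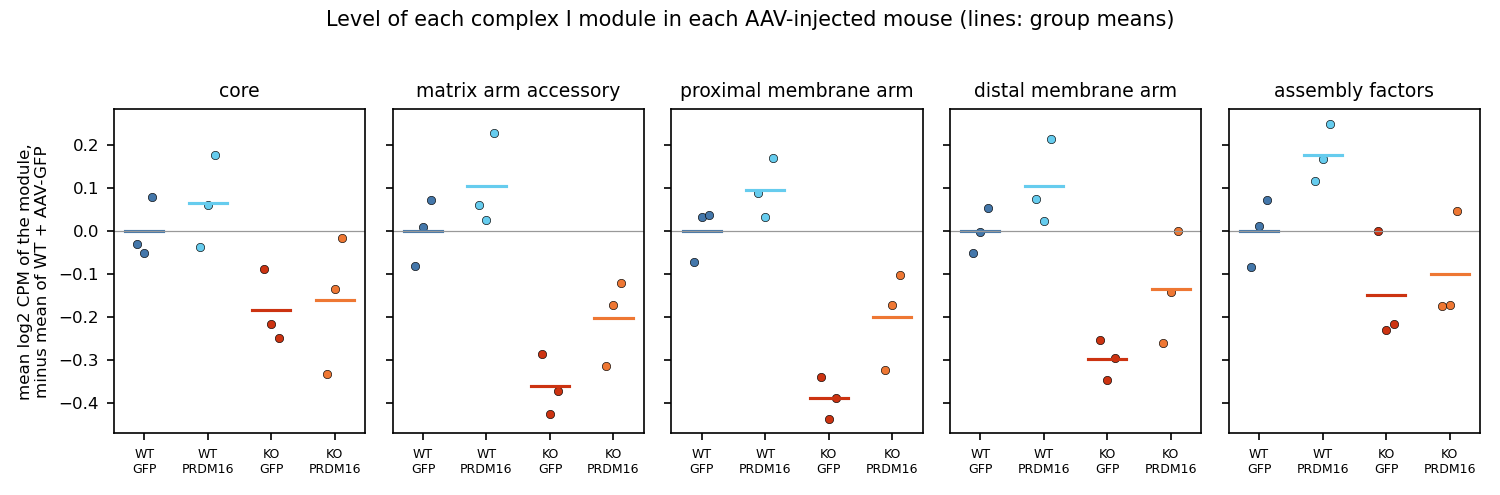
Mean log2 CPM of each complex I module in each AAV-injected mouse, minus the mean of WT + AAV-GFP, with lines at the group means. In the matrix arm and both membrane arm modules KO + AAV-GFP is lowest and KO + AAV-PRDM16 lies between it and WT, and in the core and assembly factors the KO groups lie close together.

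Other measures of the libraries differed with genotype too. The summed level of 15 leukocyte markers was 45.1 to 131 CPM in WT + AAV-GFP and 129 to 344 in KO + AAV-GFP, and 33.0 to 42.2 in WT + AAV-PRDM16 and 53.4 to 77.5 in KO + AAV-PRDM16. Over both viruses, 14 of the 15 were positive and 2 were called higher (Itgam and Csf1r). Within each virus 0 were called, with 15 positive under AAV-GFP and 10 positive and 5 negative under AAV-PRDM16. The length trend of a library, the slope of log2 CPM per doubling of transcript length against the cohort mean, ran from −0.0427 to 0.0209 in the WT libraries and from −0.000444 to 0.0413 in the KO libraries, and the members are short, with a median longest transcript of 1170.5 bases against 2874 over all genes tested and 908 for the 13 called. The same fit gave a GC trend, in log2 CPM per percent of GC content. It ran from 0.00186 to 0.00769 in the WT and from −0.0113 to 0.00204 in the KO libraries. With the trends in GC content and length taken out, 6 members were called lower, the median was −0.25 and that of all genes −0.06. Ptprc, a gene of leukocytes, and Lyz2, a gene of the myeloid cells among them, were above 0 in every library. Summed skeletal muscle markers were 30.5 to 42.7 CPM in 10 of the 12 libraries, 69.8 in WT + AAV-PRDM16 mouse 64 and 154.5 in KO + AAV-GFP mouse 57, and without the latter 14 members were called lower. Summed white fat markers were 33.9 to 49.3 CPM in WT + AAV-GFP and 95.2 to 152 in KO + AAV-GFP, without overlap (6 of 7 markers positive, 0 called), and 18.4 to 70.1 in WT + AAV-PRDM16 and 55.4 to 259 in KO + AAV-PRDM16 (3 of 7 positive, 0 called). Of 6 endothelial markers 5 were positive over both viruses, with a median of 0.30 and 0 called, and their sum was 339 to 446 CPM in the WT and 330.0 to 521 in the KO libraries. The part of the leukocytes, white fat and endothelium in the result was not tested.

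Within AAV-GFP alone, 1 of the 48 members was lower in KO (2.08%, beside 0.0476% of all genes), and this was Ndufa1, with −0.82 ± 0.12 SE (FDR 0.0326, edgeR), 43.2% less RNA. The call was lost without any one of the 3 WT + AAV-GFP or the 3 KO + AAV-GFP mice, and without WT + AAV-PRDM16 mouse 63 or 80 or KO + AAV-PRDM16 mouse 59, and the adjusted p ran from 3.71e-07 to 0.406 over the alternatives. The next members were Ndufb11 with −0.58 ± 0.10 SE, Ndufa2 with −0.54 ± 0.11 SE and Ndufb6 with −0.45 ± 0.09 SE, at FDR 0.0852 to 0.174 in edgeR's test. Unadjusted, 22 were lower with p under 0.05 (45.8%, beside 4.2%), and in 25 the KO libraries lay below the WT libraries (52.1%, beside 6.88%). The median was −0.26, and DESeq2 called 11 lower.

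Under AAV-PRDM16, 0 of the 48 members passed in edgeR's test (0.00529% of all genes were called lower by edgeR). DESeq2 called 9 and limma-voom 11 lower, without a share of all genes beside them. At an unadjusted p under 0.05, 25 were lower (52.1%, beside 6.8%), and in 27 the libraries did not overlap, with KO below (56.2%, beside 11.2%). The smallest p-values were those of Ndufv3 (−0.43 ± 0.08 SE, FDR 0.0909), Ndufb6 (−0.42 ± 0.09 SE, FDR 0.113), Ndufa8 (−0.38 ± 0.09 SE, FDR 0.120) and Ndufs8 (−0.44 ± 0.11 SE, FDR 0.131), all from edgeR. The median was −0.26 here as well.

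Whether the genotype difference depended on the virus was tested by the interaction, and 0 of the 48 members were called by edgeR, DESeq2 or limma-voom (0% of all genes were called higher). At an unadjusted p under 0.05 there was 1 member, Ndufa1 (2.08%, where 1.59% of all genes tested had such a p and a positive value). Its interaction was 0.42 ± 0.17 SE, with an unadjusted p of 0.0260 and an FDR of 0.9998 in edgeR's test. The difference between the genotypes was −0.82 under AAV-GFP and −0.40 under AAV-PRDM16 for this gene. Ndufb11 followed with 0.26 ± 0.13 SE, and Ndufs8 (−0.25 ± 0.15 SE) and Ndufa2 (0.24 ± 0.15 SE) had opposite signs. The median over the members was 0.00, with 24 positive and 24 negative. The 13 calls over both viruses average the comparisons within each virus and are not separate from them.

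Added PRDM16 itself was seen in its RNA, which was 45.9 to 122 CPM in WT + AAV-PRDM16 and 69.2 to 128 in KO + AAV-PRDM16 against 23.9 to 40.2 in the 6 AAV-GFP libraries. In KO mice, 0 members passed with AAV-PRDM16 against AAV-GFP in edgeR's test (0% of all genes were called higher), 0 with limma-voom and 2 with DESeq2. Unadjusted, 8 of 48 were higher (16.7%, beside 1.31%), and in 9 the libraries did not overlap (18.8%, beside 3.38%), with a median of 0.10 against −0.01 over all genes. The smallest p-values were those of Ndufb11 (0.40 ± 0.10 SE, FDR 0.310), Ndufa1 (0.45 ± 0.12 SE, FDR 0.313), Ndufa2 (0.35 ± 0.11 SE, FDR 0.397) and Ndufa12 (0.36 ± 0.12 SE, FDR 0.458), from edgeR. In all 4 the mean of KO + AAV-GFP was the lowest of the 4 groups, and that group also enters the genotype comparison under AAV-GFP.

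In WT mice, 0 members passed between the viruses in edgeR's test, with DESeq2 or with limma-voom (0% of all genes were called higher). Unadjusted, 2 were higher (4.17%, beside 2.1%), namely Ndufa12 (0.27 ± 0.12 SE) and Ndufv3 (0.19 ± 0.08 SE), at FDR 0.661 and 0.680 in edgeR's test, followed by Ndufaf8 (0.32 ± 0.18 SE) and Ndufa4 (0.19 ± 0.11 SE). In 9 members all AAV-PRDM16 libraries lay above all AAV-GFP libraries (18.8%, beside 6.39%), and the median was 0.11. Ndufa4 stood at 241, 265 and 296.6 CPM in WT + AAV-GFP, 304, 278 and 335 in WT + AAV-PRDM16, 235, 211 and 223 in KO + AAV-GFP and 238, 264 and 283 in KO + AAV-PRDM16, and its WT groups overlapped.

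Over both genotypes, 0 members were called for the virus (0% of all genes were called higher in edgeR's test), with 0 by limma-voom and 2 higher by DESeq2. Unadjusted, 10 were higher (20.8%, beside 2.07%), with the smallest p-values for Ndufb11 (0.27 ± 0.07 SE, FDR 0.100) and Ndufa12 (0.32 ± 0.08 SE, FDR 0.117) in edgeR's test. The median was 0.11 with 47 of 48 positive, and 0.22 with the GC content and length trends taken out, where the median of all genes was 0.11. Beside this, the summed leukocyte markers were lower with AAV-PRDM16, at 33.0 to 77.5 CPM in its 6 libraries and 45.1 to 344 in the 6 of AAV-GFP.

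**Figure D4:**
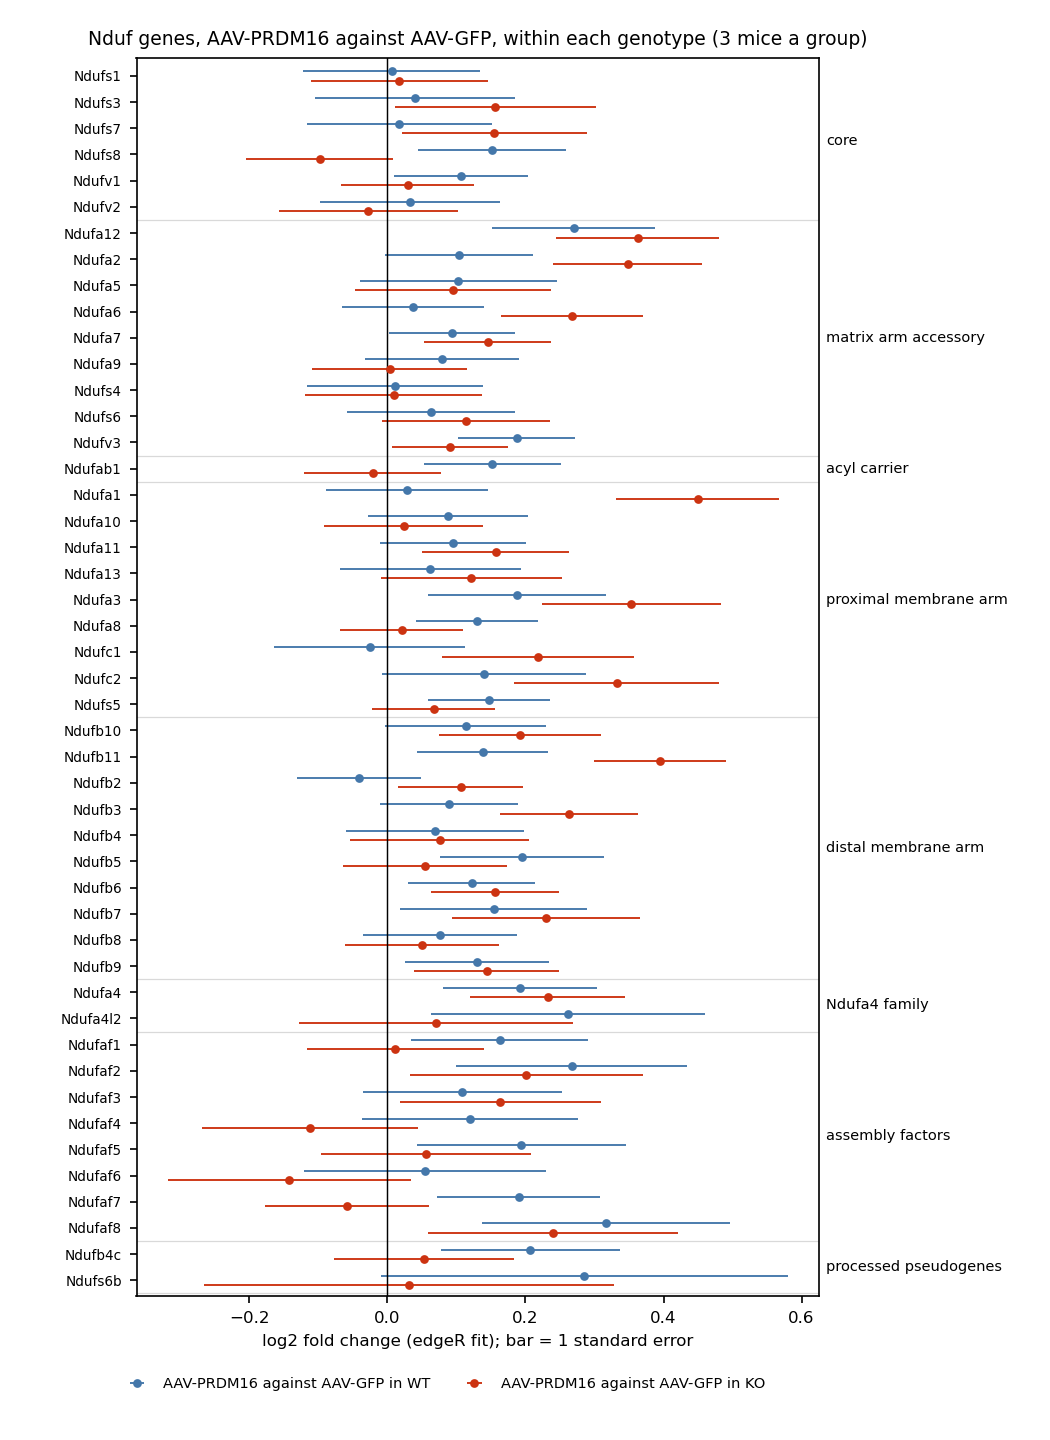
Log2 fold change of 47 of the 48 members tested, AAV-PRDM16 against AAV-GFP, in WT (blue) and in KO (red), with 1 standard error as the bar. Most points lie right of 0 in both genotypes, and the largest in KO are Ndufa1 at 0.45 and Ndufb11 at 0.40.

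KO mice given PRDM16 were compared with WT mice given GFP to see how far they stood from control. In edgeR's test 0 members passed, as with DESeq2 and limma-voom (0.00529% of all genes were called lower), 10 were lower at an unadjusted p under 0.05 (20.8%, beside 4.42%), and in 14 the libraries did not overlap, with KO + AAV-PRDM16 below (29.2%, beside 7.09%). The median was −0.16, against −0.02 over all genes, and with the GC content and length trends taken out that of the members was −0.01. Taking the trends out also moved the median of all genes in the genotype and virus comparisons. The −0.01 alone therefore does not place the members at the control level. The smallest p-values were those of Ndufb6 (−0.30 ± 0.09 SE), Ndufa4l2 (0.63 ± 0.20 SE), Ndufa1 (−0.37 ± 0.12 SE) and Ndufb2 (−0.26 ± 0.09 SE), at FDR 0.479 to 0.510 in edgeR's test. Ndufa4l2 was the 1 member above WT + AAV-GFP in all 3 libraries.

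In the untreated cohort no member passed the test. In edgeR's fit 0 of 48 were called lower (0% of all genes) and 0 higher (0%), and DESeq2 and limma-voom called 0 as well. Unadjusted, 1 was lower with p under 0.05 (2.08%, beside 10.9%) and 0 were higher (beside 4.99% of all genes). The median was 0.46, 42 of 48 being positive, against 0.04 over all 17869 genes. It was 0.19 without WT mice 1 and 2, 0.12 with a covariate for Y-linked transcripts (present or not) or with the GC content and length trends taken out, and 0.61 without the library labelled KO 1.

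The spread among untreated mice was wide, and it had a common direction over the members. The mean log2 CPM of the 48 members was 5.84, 5.67, 6.94, 6.57 and 7.12 in WT mice 1 to 5 and 6.35, 6.14, 7.39, 7.02 and 7.38 in KO mice 1 to 5. The length trends were 0.24, 0.31, −0.08, −0.00457 and −0.15 in the WT and 0.01, 0.09, −0.22, −0.09 and −0.10 in the KO mice. The GC trends ran from −0.0465 to −0.00353 in the WT and from −0.0142 to 0.092 in the KO mice. KO 1 alone among the KO mice had a negative GC trend, so the sign of this trend nearly coincided with genotype. The libraries with the highest member levels had the most negative length trends, and WT mice 1 and 2 were lowest and steepest. Both measures also ran with the sex-linked transcripts. WT 3 and 5 and KO 1, 3, 4 and 5, with Xist and almost no Y-linked transcripts, had member levels of 6.35 to 7.39. Their length trends were −0.22 to 0.01. WT 1, 2 and 4 and KO 2, with Y-linked transcripts, had levels of 5.67 to 6.57 and length trends of −0.00457 to 0.31. Summed muscle markers moved otherwise, at 53.7 to 247 CPM in 6 libraries and 1375 to 8268 in WT 3, KO 1, KO 2 and KO 5. The part of these differences between libraries in the members' values was not tested.

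**Figure D5:**
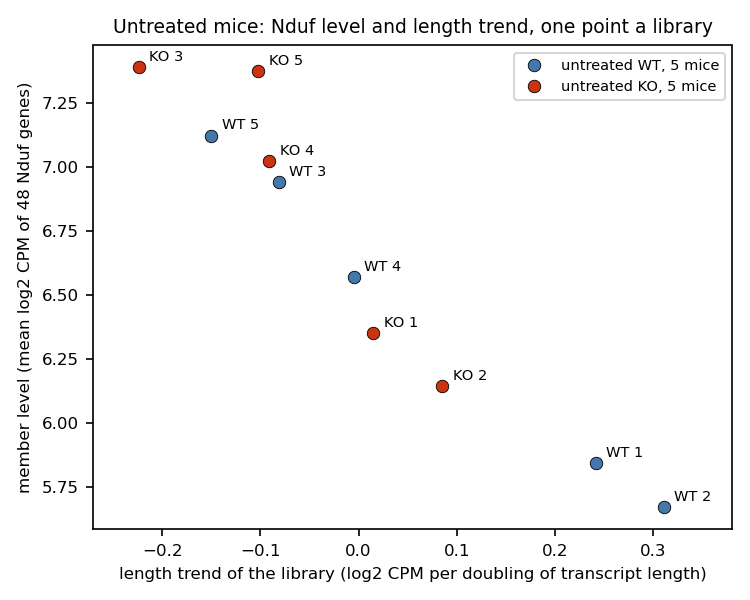
Mean log2 CPM of the 48 Nduf genes against the length trend of the library (log2 CPM per doubling of transcript length, relative to the cohort mean), 1 point for each untreated mouse, WT in blue and KO in red. The points run from WT 2, at 0.31 and 5.67, to KO 3, at −0.22 and 7.39, with both genotypes mixed along the way.

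Single members show the same spread. Ndufa1, the shortest, stood at 48.5, 22.2, 228, 118 and 268 CPM in WT mice 1 to 5 and 138, 100.2, 257, 223 and 178 in KO mice 1 to 5. Its values differ by more than 10 times within WT, and the log2 fold change was 0.39 ± 0.56 SE (FDR 0.709, edgeR), where the AAV cohort gave −0.61. The values of this X-linked gene split by the sex-linked transcripts. They were 22.2 to 118 CPM in WT 1, 2 and 4 and KO 2, which held Y-linked transcripts. In WT 3 and 5 and KO 1, 3, 4 and 5, which held Xist and almost none of these, they were 138 to 268 CPM. Whether this split comes from sex was not tested. The core subunit Ndufs1, with the smallest p-value, stood at 684, 615, 345, 443 and 568 CPM in WT mice 1 to 5 and 458, 214, 352, 348 and 204.2 in KO mice 1 to 5. KO mice 2 and 5 were lowest, KO mice 1, 3 and 4 lay inside the WT range, and the value was −0.75 ± 0.30 SE (unadjusted p 0.0257, FDR 0.305, edgeR).

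The assembly factors Ndufaf1 and Ndufaf4 followed. Ndufaf1 stood at 45.6, 37.6, 27.8, 32.3 and 44.1 CPM in WT mice 1 to 5 and 35, 14.2, 30.8, 27.7 and 18.3 in KO mice 1 to 5, with −0.57 ± 0.27 SE (FDR 0.318, edgeR), and Ndufaf4 at 61.6, 40.9, 31.1, 31.8 and 55.2 CPM in WT mice 1 to 5 and 39.3, 22.6, 23.4, 41.8 and 16.5 in KO mice 1 to 5, with −0.62 ± 0.31 SE (FDR 0.329, edgeR). The core subunit Ndufs7 had the most positive value, 0.85 ± 0.44 SE (FDR 0.341, edgeR), at 75.5, 99.1, 298, 182 and 246 CPM in WT mice 1 to 5 and 138, 203.6, 356, 372 and 554 in KO mice 1 to 5. All of these groups overlapped. The GC content was 45.1% for Ndufs1, 46.3% for Ndufaf1, 39.5% for Ndufaf4 and 59.6% for Ndufs7. The median of the protein-coding members was 50.1%. Ndufa4, with 40.3%, had a positive value of 0.43. The part of the GC trends of the libraries in these values was not tested. The complex I subunits of the mitochondrial genome were on the other side of 0, with 7 of 7 negative, a median of −0.47 and 0 called.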

How the data were processed

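BAT mRNA libraries of 22 mice (SureSelect XT HS2 kit) were sequenced by the authors. The deposited files are 2 tables of raw counts, 1 per cohort, giving whole reads on each of 55487 gene identifiers, not normalized. The submitters' processing notes name bcl2fastq 2.20, Trimmomatic 0.36, HISAT2 and GRCm38.p6, and the counting tool, strand and handling of duplicates are not given in the sources used here. Symbols, lengths and positions came from GENCODE M21, which matched 55227 identifiers.

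In R 4.3.3, genes passing filterByExpr (17869 untreated, 18899 AAV) were compared by edgeR 4.0.16 (TMM, quasi-likelihood, two-sided), 1 fit per cohort, FDR 0.05. The AAV contrasts share groups. Alternatives were RLE scaling, no filter or 0.5 CPM in 1 library, DESeq2 1.42.0, limma-voom (limma 3.58.1) with quality weights, each library left out, a replicate block, GC content and length trends removed (splines), only the groups compared, and, untreated, libraries left out or Y-linked transcripts as a covariate. The functions were tested on simulated counts.

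Mice are separate animals. Members, modules, marker lists, motifs and comparisons were chosen with earlier results of these data known. The values of 1 member are not reported here, and it is included in all counts and medians. Values in every library were given for members past FDR 0.05 (the 12 with the smallest p) or, with fewer than 4, for the 4 with the smallest p. Mice with the same replicate number in the labels, which is not the mouse number, did not deviate together (correlations from −0.29 to 0.15). Replicate numbers therefore do not pair them. At a depth of at least 55320927 counts, counting error was small beside the spread between mice over the genes as a whole, but not for every member and group. In WT + AAV-GFP, for example, Ndufa7 had an SD of 0.33 CPM on a mean of 49.0 CPM, from 5503 to 7182 counts. Tables were scaled separately, and levels are not compared between cohorts.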

Additional observations from a re-analysis of the deposited data

Results flagged for a closer look

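In 2 members 1 untreated WT library stood far from the others of its group, by the gap to the nearest library over the range of the group. Ndufa9, a matrix arm subunit, was at 379 CPM in WT mouse 5 and at 256 to 279.9 CPM in the other 4. The assembly factor Ndufaf7 was at 33.8 CPM in WT mouse 5 and at 22.1 to 24 CPM in the others. WT mouse 5 also had the highest member level of the WT libraries, a mean log2 CPM of 7.12. The same comparison was made for 98 sets of 5 libraries, and chance alone flags about 5% of such sets.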

How the results depend on the processing

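Over both viruses, the 13 members lower in KO under edgeR were 13 with RLE scaling, 12 with the replicate block, 16 with a 0.5 CPM filter and 9 without a filter. They were 26 with DESeq2 (25 lower, 1 higher), 28 with limma-voom and 6 with the GC content and length trends removed, and 4 to 14 with single libraries left out. The shares of all genes called under these alternatives are not given here. Ndufa1, Ndufb11, Ndufb6 and Ndufv3 passed in all 19 alternatives, and each of the other 9 lost its call in 5 to 13 of them. Under AAV-GFP the count of 1 became 11 with DESeq2, 0 with the replicate block, 0 with the trends removed, 0 with only the groups compared and 0 to 1 with single libraries left out. Under AAV-PRDM16 the count of 0 became 9 with DESeq2 and 11 with limma-voom. For AAV-PRDM16 against AAV-GFP, 0 became 2 in KO with DESeq2, and over both genotypes 2 with DESeq2 and 2 with the trends removed. Without the trends the medians for the virus moved to 0.217 in WT, 0.245 in KO and 0.223 over both, and that of KO + AAV-PRDM16 against WT + AAV-GFP to −0.00917, while the medians of all genes in the virus comparisons shifted to 0.102 to 0.107. The cause was not tested.

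The medians for genotype kept their sign under every alternative run, from −0.317 to −0.193 in the AAV cohort and from 0.122 to 0.69 in the untreated cohort, where 0 members passed in all 21. Only libraries with Y-linked transcripts left 3 WT and 1 KO mouse, and there the median was 0.164. The replicate block is only another fit here, since replicate numbers do not pair the mice. It gave medians of 0.536 untreated, −0.252 under AAV-GFP, −0.26 under AAV-PRDM16 and −0.261 over both, 0.112, 0.0997 and 0.113 for the virus in WT, KO and both, −0.163 for KO + AAV-PRDM16 against WT + AAV-GFP and −0.00469 for the interaction, with 0 calls in every comparison but the 12 above. No named value that was called changed sign. At these depths precision was limited by the 3 or 5 mice a group.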
